A study of Mus musculus with 3 samples.

Results

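Genes of the Wnt pathway were examined in endothelial cells (ECs) freshly sorted from the adult mouse lung. The members are the Wnt ligands, the Frizzled receptors and the secreted Frizzled-related proteins, found by their symbols, together with 20 named genes of the same pathway. The rule found 53 genes among the 24346 gene symbols of the expression table. The samples are 3 bulk RNA-seq libraries, called S38, S44 and S52, of 1 condition: lung ECs of wild-type male C57BL/6J mice aged 6 to 8 weeks, not cultured and collected by fluorescence-activated cell sorting. According to the study's methods, an antibody against VE-cadherin was injected into the circulation before the organs were taken, and antibodies against CD31, CD45, a leukocyte antigen, and podoplanin, a lymphatic one, were used on the dissociated cells. The gate used for lung is not given in the sources used here. Sex and age come from the methods, and strain, genotype and culture status from the labels. No other organ, stage or treatment was analysed here, so no difference between conditions was tested. The values are FPKM, the number of sequenced fragments divided by the length of the gene and the size of the library, so levels of different genes can be set side by side on this scale. Where 3 values of a gene follow each other they belong to S38, S44 and S52, in this order. Nothing in the labels says that the libraries come from separate mice, and the spread between them may therefore be technical in part.

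Wnt proteins are secreted lipid-modified ligands that bind a Frizzled receptor together with the co-receptor LRP5 or LRP6. Binding halts the destruction complex of AXIN, APC, GSK3 and casein kinase, β-catenin accumulates, and TCF/LEF factors then switch on target genes, among them *Axin2* and other negative regulators of the pathway. In vessels of the retina and brain, Frizzled-4 with LRP5 and tetraspanin-12 receives Norrin, and RECK with GPR124 (*Adgra2*) makes ECs responsive to WNT7A and WNT7B, which maintains the barrier. R-spondins, acting through LGR receptors, protect Frizzleds from removal by the ubiquitin ligases RNF43 and ZNRF3.

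The libraries were checked before the members were read. All 10 endothelial markers were above 10 FPKM in every library, and their medians were 482, 533 and 484 FPKM. The highest by mean was *Cldn5*, at 1486, 1732 and 1029 FPKM. RNA of other lung cells was also present, and S52 stood apart in it. The medians of 4 platelet markers, led by *Ppbp*, were 244, 216 and 9.11 FPKM, those of 5 alveolar type 2 markers, led by *Sftpc*, 182, 121 and 33.7 FPKM, and those of 5 airway markers, led by *Scgb1a1*, 43.96, 40.9 and 9.29 FPKM. The mural markers, led by *Acta2*, had medians of 6.47, 4.72 and 10.1 FPKM, and none of the 5 was lowest in S52. The fibroblast markers had medians of 7.13, 5.86 and 7.72 FPKM and differed among themselves: *Dcn*, the highest, was at 47.4, 35.5 and 19.8 FPKM, and 2 of the 5 were lowest in S52 and 2 highest. The medians of the alveolar type 1 markers, led by *Hopx*, were 10.49, 7.61 and 3.09 FPKM, although 3 of the 5 were highest in S52 and the median log2 ratios of S52 were 0.31 against S38 and 0.62 against S44. The medians were, for the leukocyte markers, led by *Lyz2*, 4.30, 2.06 and 0.434 FPKM, and for the lymphatic markers, led by *Lyve1*, 16.5, 17.1 and 10.2 FPKM. Among the lymphatic markers *Prox1*, the defining lymphatic factor, was below 1 FPKM in every library and highest in S52, at 0.132, 0.173 and 0.598 FPKM. In bulk samples, fewer cells of a type and less RNA per cell cannot be told apart. The depth of the libraries is not part of the table and was estimated from the steps between low values at 38000000, 38850000 and 33900000 fragments. At these depths 1 FPKM of a transcript of 2000 bp stands for 69.9, 71.5 and 62.7 fragments.

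Among the members that encode receptors and co-receptors, *Fzd4* and *Lrp5* were the highest in the RNA of the sorted lung fraction. All 4 destruction complex members were detected, *Tcf7* was the highest TCF/LEF factor, and few Wnt ligands were found. A mean of at least 1 FPKM, the threshold for calling a gene detected, was reached by 24 of the 53 members, whereas 48.3% of all genes and 68.6% of the genes above 0 in a library reached it. The second share leaves out genes at 0 in all libraries, while the 53 members include 7 of them. In every library 20 members were at 1 FPKM or above, against 43.9% of all genes. Among the roles the counts were 6 of 10 Frizzleds, 3 of 3 co-receptors, 4 of 4 destruction complex members, 3 of 4 TCF/LEF factors, 3 of 7 extracellular inhibitors, 2 of 6 genes of the R-spondin axis and 3 of 19 Wnt ligands. A mean of 10 FPKM was reached by 7 members, *Fzd4*, *Lrp5*, *Axin1*, *Fzd6*, *Lrp6*, *Tcf7* and *Apc*, against 25.7% of all genes. The median of the 53 members was 0.784 FPKM, the same to 3 digits as the median of all genes, and that of the 24 detected members was 4.68 FPKM against 11.2 FPKM for all detected genes. Of the 29 members below 1 FPKM, 12 were above 0 in every library, 10 were listed at 0 in 1 or 2 libraries, and 7 were listed at 0 in all libraries, as were 29.5% of all genes.

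**Figure D1:**
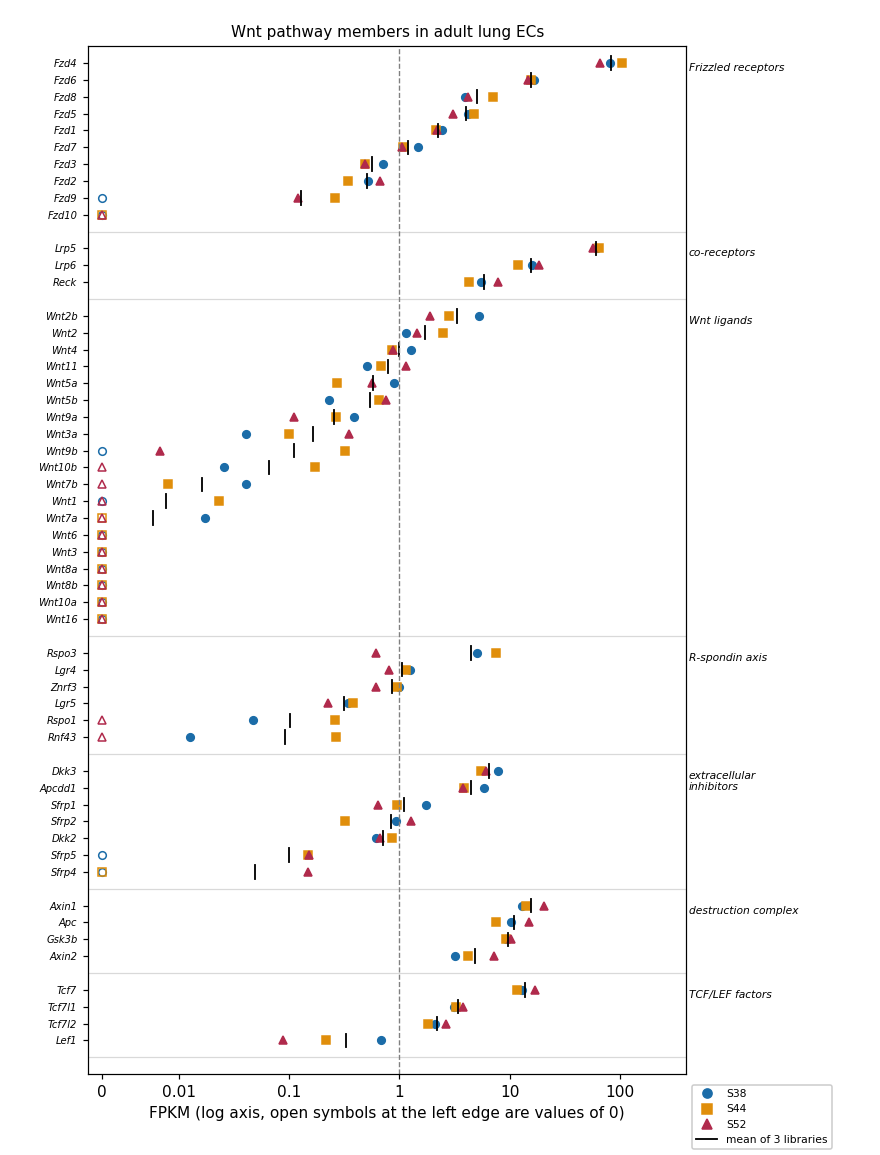
FPKM (log axis) of the 53 members in the libraries S38, S44 and S52, grouped by role and ordered by mean, with a black bar at the mean of the 3 libraries and a dashed line at 1 FPKM. *Fzd4* and *Lrp5* lie to the right of all other members in every library, and 16 of the 19 Wnt ligands have a mean below the dashed line.

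The upstream windows of 3 members are shown as examples of the regulatory sequence around this pathway: *Fzd4* as the highest member, *Axin2* as the feedback target of the pathway, and *Wnt11* as a member with a TCF/LEF word. Each is the 250 bases before a RefSeq transcription start on GRCm38.p6, 5′ to 3′ on the strand of the gene, and capitals mark the ETS core GGAAG (or CTTCC) in *Fzd4* and *Axin2* and the TCF/LEF word in *Wnt11*. ETS factors are regulators shared by many endothelial genes. The windows are chr7:89404116-89404365 for *Fzd4*, chr11:108920099-108920348 for *Axin2* and chr7:98834862-98835111 for *Wnt11*, all on the plus strand, and 72.8%, 69.2% and 70.8% of their bases are G or C.
Fzd4: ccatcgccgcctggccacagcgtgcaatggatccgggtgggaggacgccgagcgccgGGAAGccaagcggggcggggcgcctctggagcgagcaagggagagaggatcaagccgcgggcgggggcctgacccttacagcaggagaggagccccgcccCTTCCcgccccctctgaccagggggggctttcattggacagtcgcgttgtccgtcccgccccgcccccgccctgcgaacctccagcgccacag
Axin2: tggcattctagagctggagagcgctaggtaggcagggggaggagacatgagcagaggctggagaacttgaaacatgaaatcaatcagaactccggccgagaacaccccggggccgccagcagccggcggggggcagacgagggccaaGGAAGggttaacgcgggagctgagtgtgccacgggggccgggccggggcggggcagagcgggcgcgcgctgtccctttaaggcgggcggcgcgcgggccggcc
Wnt11: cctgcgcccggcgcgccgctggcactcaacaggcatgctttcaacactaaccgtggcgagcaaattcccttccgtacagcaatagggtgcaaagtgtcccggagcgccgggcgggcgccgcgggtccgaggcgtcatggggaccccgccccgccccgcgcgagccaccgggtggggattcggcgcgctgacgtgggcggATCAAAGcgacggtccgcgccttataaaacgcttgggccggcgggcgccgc
The TCF/LEF words searched were CTTTGAA and CTTTGAT on both strands, and 7.48% of all 32851 windows of this length held a word. RefSeq windows were found for 34 of the 53 members, 43 windows in all, and 2 of these windows held a TCF/LEF word, those of *Wnt5b* and *Wnt11*. The ETS core was in 24 of the 43 windows and in 64.1% of all windows, and no TCF/LEF word overlapped an ETS core in the members' windows. These matches are descriptions of the letters in short windows.

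*Fzd4* encodes the receptor of Norrin and of several Wnts and is a gene of 2 exons on the plus strand (chr7:89404355-89413134, GRCm38). Its level was 80.4, 104.6 and 65.2 FPKM, with a mean of 83.4 ± 19.9 FPKM (SD, n = 3 libraries), above 95.7% of all genes. *Fzd6*, which is linked to planar cell polarity, followed at 16.6, 15.7 and 14.6 FPKM, with a mean of 15.6 ± 1.01 FPKM (SD, n = 3). The lowest *Fzd4* value was well above the highest *Fzd6* value, and the ratio of *Fzd4* to *Fzd6* within a library was 4.83, 6.68 and 4.47. Of the summed FPKM of the 10 Frizzleds, *Fzd4* took 72.9%, 76.7% and 71.2%, a share of 73.6% ± 2.83 (SD, n = 3) that does not depend on the scaling of the libraries. *Fzd6* took 14.2% ± 2.37, *Fzd8* 4.45% ± 0.801 and *Fzd5* 3.54% ± 0.225 (SD, n = 3 for each). The order of the leading pair was the same in all 3 libraries. On the deposited scale the *Fzd4* level itself was highest in S44 and lowest in S52. With each library rescaled to the same sum of FPKM, *Fzd4* is highest in S38 and still lowest in S52.

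The other Frizzleds were at low levels. *Fzd8* was at 3.96, 7.07 and 4.18 FPKM, and *Fzd5* at 4.18, 4.71 and 3.08 FPKM, so their ranges overlapped. *Fzd1* was at 2.42, 2.15 and 2.18 FPKM and *Fzd7* at 1.47, 1.08 and 1.05 FPKM, both above 1 FPKM in every library. *Fzd3* at 0.563 ± 0.132 FPKM and *Fzd2* at 0.508 ± 0.165 FPKM (SD, n = 3 for each) were below the threshold in every library. *Fzd9* was listed at 0 in S38 and reached 0.262 FPKM (S44) and 0.120 FPKM (S52), and *Fzd10* was listed at 0 throughout. Of the exonic bases of *Fzd5*, 17.8% are shared with the noncoding gene *Gm38058* on the other strand, and reads without strand cannot separate them.

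The co-receptors were present with *Lrp5* above *Lrp6*. *Lrp5* (chr19:3584828-3686564, minus strand) was at 61.6, 64.8 and 57.0 FPKM, with a mean of 61.1 ± 3.93 FPKM (SD, n = 3). *Lrp6*, its paralogue (chr6:134446476-134566965, minus strand), was at 16.0, 11.9 and 18.6 FPKM, with a mean of 15.5 ± 3.39 FPKM (SD, n = 3). The groups of values do not overlap, and *Lrp5* was 3.86, 5.45 and 3.06 times as high as *Lrp6* within the same libraries. *Reck*, the membrane-anchored protein that presents WNT7 to Frizzled (chr4:43875530-43944806, plus strand), was at 5.52, 4.30 and 7.85 FPKM, highest in S52. *Fzd4* and *Lrp5* were the top members, in this order in each library, and their ranges were separated only narrowly, by 65.2 FPKM as the lowest *Fzd4* value and 64.8 FPKM as the highest *Lrp5* value. Among the 23 pairs of neighbours in the order of the 24 detected members, 3 had separate ranges on the deposited scale: *Fzd4* and *Lrp5*, *Lrp5* and *Axin1*, and *Gsk3b* and *Dkk3*. Rescaling to the same sum of FPKM multiplies S38, S44 and S52 by 1.21, 0.868 and 0.981. Of these pairs, only *Lrp5* and *Axin1* then keep separate ranges. With 3 libraries an exact paired sign-flip test cannot give a p below 0.25, so no difference between genes was tested.

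**Figure D2:**
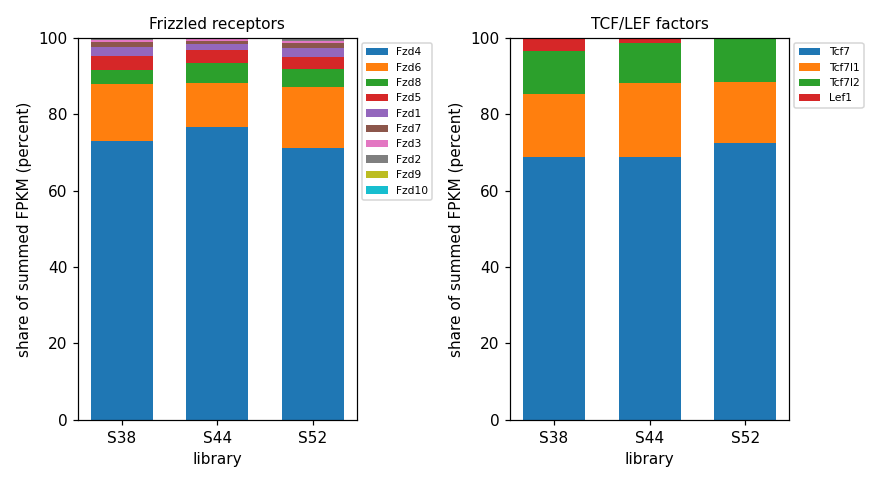
Share (percent, y axis) of each Frizzled gene in the summed FPKM of all Frizzleds, left, and of each TCF/LEF gene in the summed FPKM of that family, right, in the libraries S38, S44 and S52 (x axis). *Fzd4* takes between 71.2% and 76.7% and *Tcf7* between 68.8% and 72.4%, so the leading gene of each family is the same in every library.

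Partners that are no members of this set were read from a fixed list of 63 other pathway genes. Of these, 47 were at 1 FPKM or above, against 48.3% of all genes and 68.6% of the genes above 0 in a library. The second share leaves out genes at 0 in all libraries, while the 63 genes include 3 of them. Among the genes that complete the endothelial Frizzled-4 complexes, *Tspan12*, which encodes tetraspanin-12, was at 121, 119 and 103 FPKM. It was 1.41 ± 0.236 times as high as *Fzd4* (SD, n = 3). *Adgra2*, the partner of *Reck*, was at 42.8, 44.05 and 52.5 FPKM, or 8.23 ± 1.83 times the level of *Reck* (SD, n = 3). *Ndp*, the gene of Norrin, was listed at 0 in all 3 libraries. *Ryk*, a Wnt-binding receptor tyrosine kinase homologue, was at 31.4 ± 1.19 FPKM, *Kremen1*, which binds Dickkopf proteins, at 13.9 ± 1.07 FPKM, and *Ptk7* at 3.49 ± 1.02 FPKM (SD, n = 3 for each). *Ror2*, a receptor for WNT5A, was below 0.5 FPKM in every library, and *Ror1* was at 2.04, 0.876 and 0.668 FPKM, over 2-fold higher in S38 than in S52. The receptor genes of the complexes known from brain and retina vessels are *Fzd4*, *Lrp5*, *Tspan12*, *Reck* and *Adgra2*. All were at 1 FPKM or above in every library, as were 43.9% of all genes.

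Wnt ligands were low in the sorted cells. The 19 genes together came to 9.80, 8.65 and 7.15 FPKM, and the summed Frizzleds were 11.3, 15.8 and 12.8 times as high. *Wnt2b*, a ligand of the canonical pathway (chr3:104945272-104961921, minus strand), was the highest by mean at 5.22, 2.80 and 1.88 FPKM, with a mean of 3.30 ± 1.73 FPKM (SD, n = 3). *Wnt2*, which like *Wnt2b* acts in the specification of the lung in the embryo, was at 1.16, 2.49 and 1.46 FPKM, with a mean of 1.70 ± 0.698 FPKM (SD, n = 3). *Wnt2b* was above *Wnt2* in each library, but their ranges overlapped. *Wnt4* was at 1.27, 0.865 and 0.866 FPKM, and its mean of 1.0 FPKM lies within its SD of the threshold. *Wnt2b* and *Wnt2* held the leading mean shares of the ligand sum, at 37.3% ± 14.2 and 20.3% ± 8.47 (SD, n = 3).

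The next ligands were *Wnt11* at 0.512, 0.683 and 1.16 FPKM, *Wnt5a* at 0.891, 0.272 and 0.567 FPKM, and *Wnt5b* at 0.228, 0.654 and 0.750 FPKM, which are ligands best known for signalling without β-catenin. None of them was above 1 FPKM by its mean. *Wnt11* shares 10.1% of its exonic bases with *Gm8398* on the other strand. *Wnt9a* was at 0.257 ± 0.140 FPKM and *Wnt3a* at 0.163 ± 0.165 FPKM (SD, n = 3 for each), both above 0 in every library. *Wnt9b* and *Wnt10b*, at 0.322 and 0.173 FPKM in S44, were at or below 0.0254 FPKM in the other libraries. *Wnt7a* and *Wnt7b*, the ligands of the RECK and GPR124 complex, were near 0. *Wnt7b* was at 0.0409, 0.00795 and 0 FPKM, which corresponds to about 5, 1 and 0 fragments, and *Wnt7a* was at 0.0174 FPKM in S38 and listed at 0 in S44 and S52. *Wnt1* was at 0.0231 FPKM in S44 and listed at 0 in the others. *Wnt3*, *Wnt6*, *Wnt8a*, *Wnt8b*, *Wnt10a* and *Wnt16* were listed at 0 in all 3 libraries. At the estimated depth a count of 0 allows between 0.0240 and 0.0554 FPKM for these 6 genes, depending on length and library, and this limit covers counting error only.

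The genes that ECs would need to secrete a Wnt were higher than the ligands themselves. *Wls*, the carrier that takes Wnts to the cell surface, was at 55.5, 60.8 and 64.0 FPKM, and *Porcn*, which attaches their lipid, at 7.59, 8.13 and 6.07 FPKM. *Notum*, which removes that lipid outside the cell, was at 0.678, 0.440 and 0.111 FPKM. It shares 38.3% of its exonic bases with *Myadml2os* and *Notumos* on the other strand. *Wls* exceeded the sum of all 19 ligands in each library.

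In the R-spondin axis, *Rspo3* was the only detected member that differed between libraries by more than 3-fold on FPKM + 0.5. *Rspo3* encodes a secreted R-spondin that ECs of several organs produce (chr10:29452416-29535867, minus strand). Its level was 5.09, 7.53 and 0.617 FPKM, lowest in S52. The S52 value rests on about 61 fragments, with a 95% Poisson interval of 0.469 to 0.788 FPKM for counting error, so S52 lies below both other libraries by more than counting. On the log2(FPKM + 0.5) scale S52 was -2.32 against S38 and -2.85 against S44. *Rspo3* shares 13.1% of its exonic bases with the noncoding gene *Gm48159* on the other strand. *Rspo1* was also lowest in S52, at 0.0471, 0.260 and 0 FPKM, but at far lower levels.

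The receptors and ligases of the R-spondin axis were close to or below the threshold. *Lgr4* was at 1.24, 1.15 and 0.803 FPKM, and *Lgr5*, a marker of epithelial stem cells, at 0.341, 0.376 and 0.226 FPKM. *Znrf3*, a ubiquitin ligase that removes Frizzleds and is itself a pathway target, was at 0.994, 0.954 and 0.612 FPKM. Its homologue *Rnf43* was at 0.0127, 0.265 and 0 FPKM. *Znrf3* was above *Rnf43* in each library, and neither reached 1 FPKM. *Rspo2* was listed at 0 in all libraries and *Rspo4* did not exceed 0.127 FPKM.

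Of the extracellular inhibitors, *Dkk3*, a divergent Dickkopf family member, was the highest at 7.82, 5.52 and 6.13 FPKM. *Apcdd1*, a membrane inhibitor that is a Wnt target in brain and retina vessels, was at 5.90, 3.82 and 3.74 FPKM. *Sfrp1*, which binds Wnts outside the cell, was at 1.75, 0.946 and 0.634 FPKM, and *Sfrp2* at 0.927, 0.320 and 1.28 FPKM. *Dkk2* was at 0.616, 0.8505 and 0.671 FPKM, below 1 FPKM in each library. *Sfrp5*, at up to 0.152 FPKM, was listed at 0 in S38, and *Sfrp4* was above 0 in S52 alone, at 0.147 FPKM. The Dickkopf gene *Dkk1* was at 0.0380 ± 0.0207 FPKM (SD, n = 3), and *Wif1* was at 3.94, 0.467 and 1.03 FPKM, over 4-fold higher in S38 than in S44. *Frzb*, a secreted Frizzled-related gene, was at 0.333, 0.222 and 0.511 FPKM. *Sfrp2* shares 17.3% of its exonic bases with *Gm26771* on the other strand.

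All 4 members of the destruction complex were detected, and each was highest in S52, except that *Gsk3b* was not with each library rescaled to the same sum of FPKM. *Axin1*, the scaffold (chr17:26138688-26195811, plus strand), was at 12.8, 13.9 and 20.4 FPKM. *Apc*, the tumour suppressor that holds β-catenin in the complex, was at 10.3, 7.52 and 14.8 FPKM, and *Gsk3b*, the kinase, at 9.31, 9.34 and 10.2 FPKM. *Axin2*, the scaffold that is itself a pathway target (chr11:108920349-108950783, plus strand), was at 3.19, 4.18 and 7.24 FPKM, with a mean of 4.87 ± 2.11 FPKM (SD, n = 3). The ratio of *Axin1* to *Axin2* was 4.02, 3.33 and 2.82, so *Axin1* was the higher scaffold throughout. For *Gsk3b* the log2 ratio of S52 to S38 was 0.13, and -0.16 after that rescaling.

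The rest of the intracellular relay was high. *Ctnnb1*, the gene of β-catenin, which also joins cadherins at cell junctions, was at 230, 238 and 324 FPKM, above 98.4% of all genes. All 12 relay and destruction complex genes of the fixed list were at 1 FPKM or above in every library, against 43.9% of all genes. *Csnk1a1*, the priming kinase of the complex, was at 139 ± 6.35 FPKM and *Csnk1d* at 72.4 ± 18.3 FPKM (SD, n = 3 for each). *Gsk3a* was at 27.5, 24.4 and 38.7 FPKM, 2.95, 2.61 and 3.79 times the level of *Gsk3b*. *Gsk3a* shares 19.3% of its exonic bases with *9130221H12Rik* on the other strand. Among the Dishevelled genes *Dvl1* was the highest, at 22.2 ± 2.69 FPKM (SD, n = 3), and *Dvl3* was at 3.93, 2.30 and 1.64 FPKM, over 2-fold lower in S52 than in S38.

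The TCF/LEF factors were led by *Tcf7*, which encodes TCF1 (chr11:52252371-52283014, minus strand), at 13.0, 11.7 and 17.0 FPKM. *Tcf7l1*, often a repressor, was at 3.12, 3.28 and 3.78 FPKM, and *Tcf7l2* at 2.098, 1.81 and 2.64 FPKM, with ranges that did not overlap with each other or with *Tcf7*. *Tcf7* took 70.0% ± 2.06 of the summed FPKM of the family, *Tcf7l1* 17.3% ± 1.75 and *Tcf7l2* 11.0% ± 0.279 (SD, n = 3 for each). *Lef1*, a factor that is also a Wnt target (chr3:131110471-131224356, plus strand), was at 0.676, 0.215 and 0.0871 FPKM, below 1 FPKM in each library. It was highest in S38 and rests on about 85, 28 and 10 fragments, and 34.5% of its exonic bases are shared with *Gm43352* on the other strand. *Tcf7* and *Lef1* are also expressed in T cells. The T cell gene *Cd3e* was at 0.206, 0.261 and 0 FPKM, and *Ptprc*, which marks leukocytes, at 4.30, 2.06 and 0.434 FPKM. *Ptprc* had the same order of libraries as *Lef1*, but so did every platelet and every alveolar type 2 marker. *Cd3e* was highest in S44 and *Tcf7* in S52. The part of leukocytes in the *Tcf7* and *Lef1* levels was not tested. Of 9 nuclear cofactors 8 were at 1 FPKM or above, against 48.3% of all genes. They were led by the corepressor *Tle1* at 24.5 ± 2.78 FPKM, *Tle4* at 18.9 ± 1.22 FPKM and the coactivator *Pygo2* at 16.9 ± 1.4996 FPKM (SD, n = 3 for each).

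Genes known as targets and feedback regulators of the pathway were at uneven levels. *Nkd1*, a feedback inhibitor that binds Dishevelled (chr8:88521354-88594884, plus strand), was at 106, 111 and 115 FPKM, with a mean of 111 ± 4.43 FPKM (SD, n = 3), above 96.7% of all genes. Its homologue *Nkd2* was at 14.3 ± 1.55 FPKM (SD, n = 3). *Nkd1* was 33.2, 26.7 and 15.8 times as high as *Axin2*, a ratio that was lowest in S52, where *Axin2* was highest. The target *Ccnd1* was at 75.4 ± 9.33 FPKM and *Myc* at 5.28 ± 0.401 FPKM (SD, n = 3 for each), and both respond to other pathways as well. *Ccnd1* shares 21.9% of its exonic bases with *LTO1* on the other strand. *Tnfrsf19* was at 2.13 ± 0.518 FPKM (SD, n = 3). *Sp5* was listed at 0 in all libraries, and *Lef1*, *Notum*, *Rnf43* and *Znrf3* were below 1 FPKM. Among Wnt targets of brain endothelium on the fixed list, *Abcb1a* was at 42.0 ± 4.97 FPKM, *Sox17* at 35.9 ± 3.70 FPKM and *Slc2a1*, a glucose transporter, at 13.4 ± 2.92 FPKM (SD, n = 3 for each). *Foxf2* was at 2.18, 1.07 and 2.38 FPKM, whereas *Mfsd2a* and *Foxq1* did not exceed 0.189 FPKM in any library.

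In the planar cell polarity branch, which uses Frizzleds without β-catenin, 9 of 11 listed genes were at 1 FPKM or above, against 48.3% of all genes. *Prickle2* was at 59.0 ± 9.16 FPKM, *Prickle1* at 47.6 ± 3.90 FPKM and *Daam1* at 27.3 ± 4.58 FPKM (SD, n = 3 for each). *Vangl1*, at 8.09 ± 1.80 FPKM, was above *Vangl2*, at 2.74 ± 1.01 FPKM (SD, n = 3), in each library. *Celsr1* and *Celsr3* were below 0.3 FPKM throughout, and *Prickle3*, at 1.75, 3.16 and 0.822 FPKM, was over 2-fold apart between S44 and S52.

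**Figure D3:**
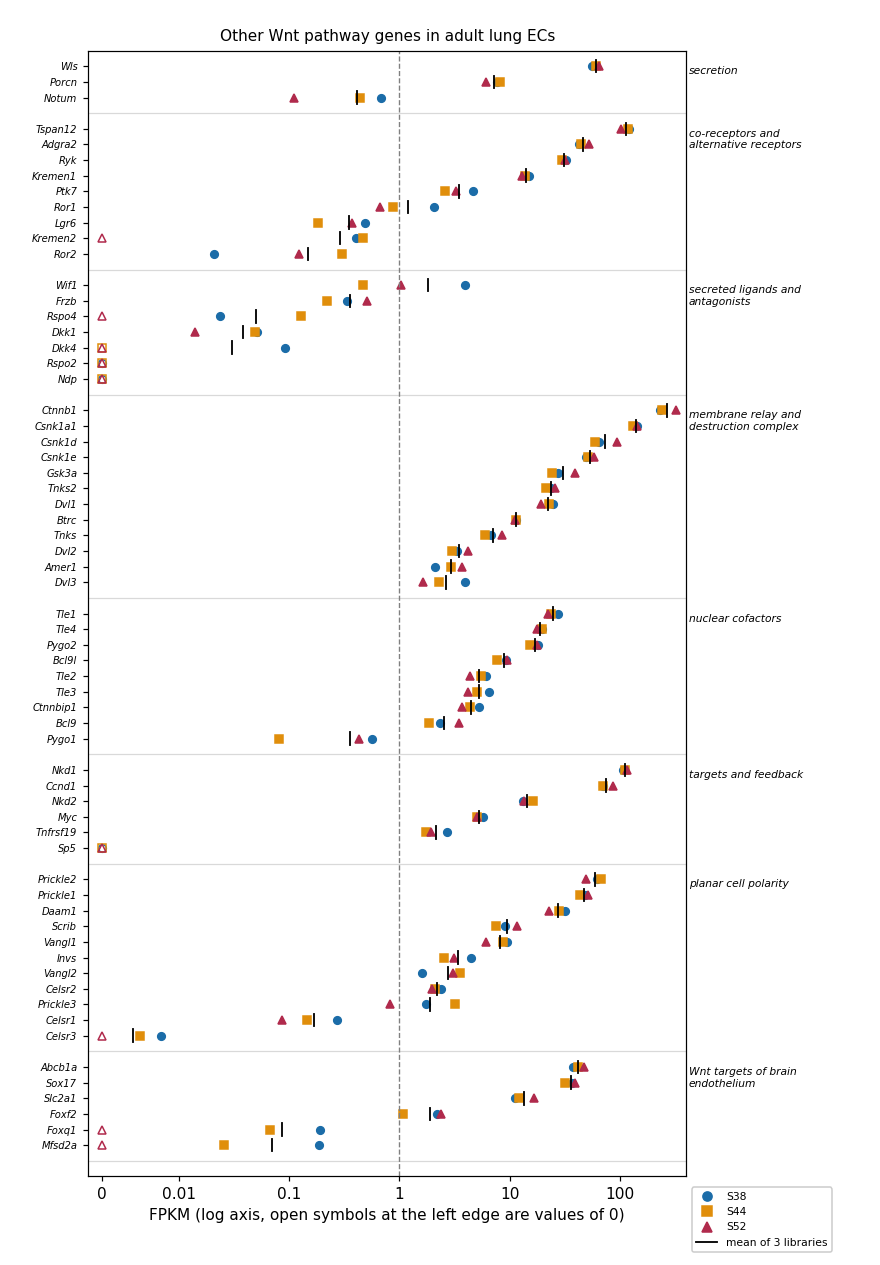
FPKM (log axis) of the 63 other pathway genes in the libraries S38, S44 and S52, grouped by role, with a black bar at the mean and a dashed line at 1 FPKM. *Ctnnb1*, *Csnk1a1*, *Tspan12* and *Nkd1* are the only genes with a mean above 100 FPKM, and *Ndp*, *Rspo2* and *Sp5* are at 0 in every library.

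How far the libraries differ was described for the 24 detected members. The highest library was over 2-fold above the lowest, on FPKM + 0.5, for 3 of them, *Rspo3*, *Wnt2b* and *Axin2*, and for 15.9% of all detected genes. The number was 1 without S38, 3 without S44 and 0 without S52, so each such call needed S52. The median coefficient of variation over the libraries was 22.6% for the detected members and 17.6% for all detected genes. *Gsk3b*, *Lrp5*, *Fzd6* and *Fzd1* varied least, with coefficients of variation of 5.34%, 6.43%, 6.46% and 6.57%.

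S52 was lowest for 10 of the 24 detected members, against 46.3% of all detected genes, and highest for 9, against 33.9%. The member furthest down was *Rspo3*, the only one over 2-fold below both other libraries, as were 6.41% of all detected genes. No member was over 2-fold above both, as were 1.22%. *Axin2* came nearest, with log2 ratios of 1.07 to S38 and 0.73 to S44, followed, by the smaller of both ratios, by *Axin1* with 0.65 and 0.54, *Apc* with 0.50 and 0.93 and *Reck* with 0.47 and 0.80. The medians over the 24 members were -0.12 against S38 and -0.01 against S44, and those over all detected genes -0.09 and -0.07. The ratios to S38 and to S44 share the S52 library and are therefore not independent.

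Some markers of other cells were also lowest in S52, where *Rspo3* was lowest. In S52 all 4 platelet, all 5 alveolar type 2 and all 5 airway markers were lowest, with median log2 ratios of -5.06 and -4.72, -2.41 and -1.83, and -2.35 and -2.26 against S38 and S44. Of these, *Bpifa1* alone was listed at 0 in S52. On the deposited scale all of them except *Bpifa1* were highest in S38, whereas *Rspo3* was highest in S44. Of the mesothelial markers, *Msln* was at 1.33, 4.12 and 0 FPKM, *Upk3b* at 0.560, 1.70 and 0 FPKM, and *Wt1* was above 0 in S38 alone. Their summed level was 2.04, 5.83 and 0 FPKM. On the deposited scale, the summed endothelial, alveolar type 1 and lymphatic markers had the same order of libraries as this sum and *Rspo3*. S44 was highest and S52 lowest. Rescaling to the same sum of FPKM multiplies S38, S44 and S52 by 1.21, 0.868 and 0.981. S38 then comes first for the endothelial, alveolar type 1 and lymphatic sums. Of the 10 endothelial markers 3 were lowest in S52 and 3 highest, and of the 5 alveolar type 1 markers 2 were lowest and 3 highest. The lymphatic marker *Ccl21a* was at 9.41, 10.3 and 0 FPKM, while *Prox1*, the defining lymphatic factor, was at 0.132, 0.173 and 0.598 FPKM. The summed level of the 5 leukocyte markers was 1061, 790 and 169 FPKM, nearly all of it *Lyz2* at 1047, 780 and 166 FPKM. *Ptprc* was at 4.30, 2.06 and 0.434 FPKM. The part of these cells in the *Rspo3* difference was not tested.

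The mural, endothelial and fibroblast markers did not share a common direction in S52. The mural markers had median log2 ratios of S52 of 0.60 against S38 and 0.996 against S44, with a summed level of 115, 60.2 and 111 FPKM, and the endothelial markers 0.09 and -0.06. The summed endothelial level was 6369, 7058 and 6291 FPKM. *Wnt2b*, *Wnt2* and *Wnt5a* can be made by lung fibroblasts. The fibroblast markers *Col1a1*, *Dcn*, *Pdgfra*, *Lum* and *Tcf21* were all above 1 FPKM in every library. Their summed level, led by *Dcn*, was 76.9, 61.8 and 48.1 FPKM, although 2 of the 5 were lowest in S52 and 2 highest. The part of other cells in the levels of the members was not tested.

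**Figure D4:**
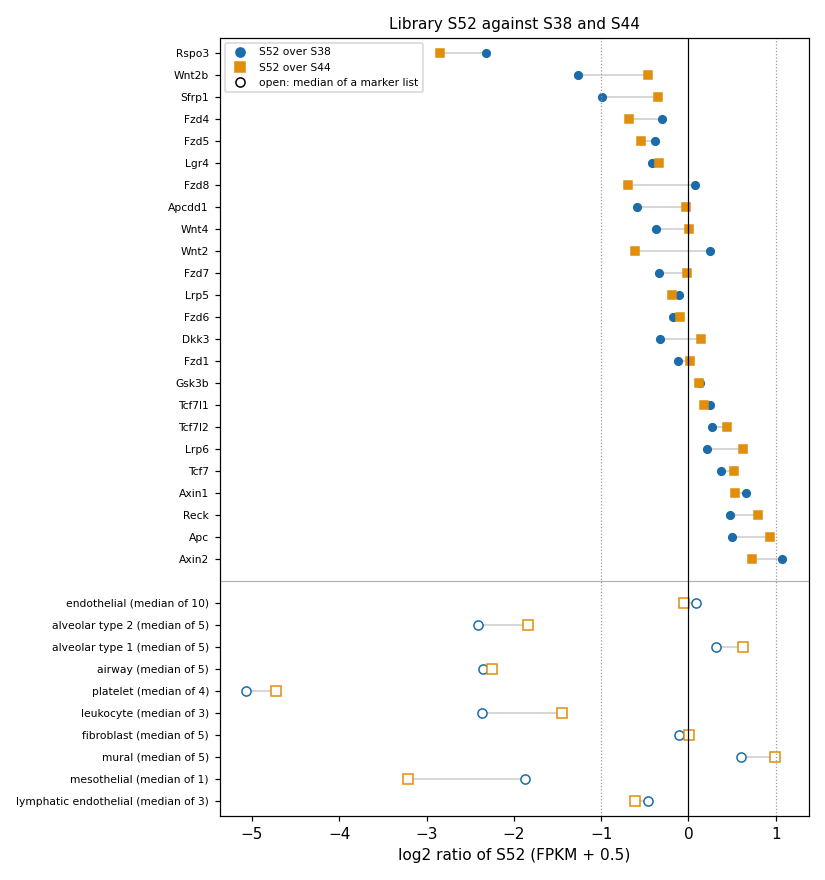
Log2 ratio of S52 to S38 (circles) and to S44 (squares), on FPKM + 0.5, for the 24 detected members, filled, and as the median over the detected genes of each marker list, open, with dotted lines at 2-fold. *Rspo3* lies at -2.32 and -2.85, and the platelet, alveolar type 2, airway, leukocyte and mesothelial lists also lie to the left of the dotted line with both ratios, while the endothelial list lies near 0. The mesothelial point is *Msln* alone, the 1 detected gene of its list, and the leukocyte point is the median of 3 detected genes.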

How the data were processed

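The deposited table holds FPKM by gene symbol, made by the authors, for 3 libraries (poly-A selected RNA, paired reads of 51 bp, no strand information) on mm10. The submitters' processing notes list bcl2fastq 2.17, FastQC 0.11.5, Trimmomatic 0.36, TopHat2 2.1.0 and Cufflinks 2.2.1, whereas the paper's methods describe STAR and HTSeq counts. Which tools made the FPKM values, and the gene annotation, are not given in the sources used here. Values were used as deposited, with 0 columns left out, and all 3 libraries form 1 group, so no comparison between groups was possible and no test was run. Ratios between libraries used a pseudocount of 0.5 FPKM. Rescaling, thresholds, pseudocounts and left-out libraries were the alternatives.

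Depth was estimated from 7077 genes with 1 basic GENCODE M21 transcript of 800 to 4000 bp, as the step that brings low FPKM values times length to whole fragments. A distance of at most 0.15 from a whole fragment was found for 78.4%, 77.4% and 74.9% of low values (S38, S44, S52). Tested on counts simulated for these genes with the same length formula, the largest error was 0.0621%. This checks the search alone and does not measure the error of the depths of the real libraries. Fragments of a member assume its longest basic transcript. Positions are those of GENCODE M21 (GRCm38). Intervals and limits (95%, 3 fragments) cover counting error only.

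The members and lists were chosen with earlier results of these data known. Named are all members at 1 FPKM or above, the members below by value or range, the 3 highest genes of each listed role, genes over 2-fold apart, and the highest gene of each marker list. Outside this rule, and named after their values were seen, are *Ptk7*, *Ror2*, *Kremen1*, *Ndp*, *Rspo2*, *Dkk1*, *Gsk3a*, *Dvl1*, *Myc*, *Sp5*, *Tnfrsf19*, *Mfsd2a*, *Foxq1*, *Foxf2*, *Vangl1*, *Vangl2*, *Celsr1*, *Celsr2*, *Celsr3*, and the markers *Cd3e*, *Ptprc*, *Bpifa1*, *Upk3b*, *Wt1*, *Ccl21a*, *Prox1* and the other fibroblast markers. Python 3.11.15, pandas 2.3.3, numpy 2.4.6, scipy 1.17.1 and matplotlib 3.10.9 were used.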

Additional observations from a re-analysis of the deposited data

How the results depend on the processing

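The 24 members and 47 other pathway genes at 1 FPKM or above were counted by the mean. A mean of 0.1 FPKM gave 39 members, 10 FPKM gave 7 members and 25 other genes, and 1 FPKM in every library gave 20 and 44. Leaving out each library gave 21 to 25 members and 45 to 47 other genes. The 3 members over 2-fold apart became 5 with a pseudocount of 0 or 0.1 FPKM, 5 with no filter on the mean, 12 at 1.5-fold and 1 at 3-fold, and between 0 and 3 without a library (0 without S52, 1 without S38). The median of the detected members lay between 4.44 and 4.88 FPKM without a library. The level of *Rspo3*, 4.41 FPKM, was 2.85 FPKM without S44, 4.07 FPKM without S38 and 6.31 FPKM without S52. The number lowest in S52 was 10, and it was 12 against S44 alone, 13 against S38 alone and 8 under either rescaling. A rescaling moves all ratios of a pair of libraries by about the same amount, so it changed the sign of ratios near 0 alone, 7 of 48 with a common sum of FPKM and 2 of 48 with a common upper quartile. Values near 0 FPKM rest on few fragments. No paired analysis was possible because there is 1 group.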
